A study of Mus musculus with 4 samples.

Results

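Elastic fibres give arteries, lungs and heart valves their recoil. Cells secrete tropoelastin, which is deposited on a scaffold of fibrillin microfibrils with the help of fibulins and of latent TGF-beta binding proteins, and lysyl oxidases then cross-link it into an insoluble core. Endothelial cells contribute some of these proteins to the inner elastic layer of arteries, while fibroblasts and smooth muscle cells are the better known sources.

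The genes described here are 10 genes of the elastic fibre, chosen by symbol among the 24346 genes of a deposited expression table: elastin (Eln), the microfibril genes Fbn1, Mfap5 and Ltbp4, the fibulins Fbln2 and Fbln5, Emilin1, and the lysyl oxidases Lox, Loxl1 and Loxl2. All 10 symbols were found. RNA had been measured in endothelial cells purified by flow cytometry from the hearts of mice labelled young, on a C57BL/6 background, with the cells labelled as freshly isolated. There were 2 libraries per genotype: ECp53KO_170 and ECp53KO_172, and the wild-type Ctrl_178 and Ctrl_182. Where 2 values are given for a group, they follow that order. ECp53KO is not expanded in the labels and is read here as loss of p53 in endothelial cells, since the series title names endothelial p53. The sources used here name neither the driver of any Cre, nor the deleted exons, nor the age in weeks. Whether the libraries stem from separate mice is also unstated, so p-values measure only the spread between these libraries, which may be technical.

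Values are FPKM, fragments scaled by transcript length and by sequencing depth, as deposited. The estimated number of fragments was 22600000 for Ctrl_182 and between 9900000 and 11400000 for the other 3 libraries. The targeted gene Trp53 had FPKM values of 4.41 and 2.45 with ECp53KO, against control values of 52.1 and 28.8. Its log2 fold change was -3.20 ± 0.36 (SE) and alike within both pairs of libraries below (-3.30 and -3.11), yet Trp53 itself was not called at the threshold of 0.05 used throughout (limma adjusted p = 0.146). ECp53KO_170 stood apart from the other libraries: genes with long transcripts were relatively low in it (Spearman's rho of length and deviation -0.43 across genes, which are not independent replicates, against 0.15 to 0.32 in the other 3 libraries), and its erythroid markers were high. Xist was near 0 in ECp53KO_170 (0.0230 FPKM) and Ctrl_178 (0.0352 FPKM) and high in ECp53KO_172 (23.0 FPKM) and Ctrl_182 (23.9 FPKM). Each group thus held 1 library of each Xist level, and results are also given within a level (ECp53KO_170 against Ctrl_178, ECp53KO_172 against Ctrl_182). The Y chromosome genes Ddx3y and Eif2s3y were at 17.1 and 36.4 FPKM in ECp53KO_170 and at 21.7 and 27.5 FPKM in Ctrl_178. In ECp53KO_172 they were at 0.0422 and 0.0597 FPKM and in Ctrl_182 at 0.912 and 1.21 FPKM. The high Xist libraries were thus not fully alike in these genes.

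The promoters of members are shown first, since the comparison is about a transcription factor and p53 binds DNA at a pair of short half-sites. RefSeq's promoter table (GRCm38.p6) held 5 of the 10 members with 8 start sites between them: Fbn1, Ltbp4 with 3 starts, Fbln2, Fbln5 with 2 starts, and Emilin1. The 250 bases before a start are printed 5′ to 3′ for Fbn1 and Fbln5, whose ECp53KO values both lay under the 2 control values, and for Ltbp4, the most abundant member. All 3 lie on the minus strand, Fbn1 at chr2:125506439-125506688, Fbln5 (its more upstream start) at chr12:101819120-101819369 and Ltbp4 (the most upstream of its 3 starts) at chr7:27337613-27337862. The Ltbp4 window lies inside the RefSeq bounds of the gene (27305140 to 27339720), so it is not the sequence before the gene's outer end. The Fbn1 window overlaps the end of its gene (125506485). Capitals mark GGGCGG on either strand, the GC box bound by SP1:
Fbn1: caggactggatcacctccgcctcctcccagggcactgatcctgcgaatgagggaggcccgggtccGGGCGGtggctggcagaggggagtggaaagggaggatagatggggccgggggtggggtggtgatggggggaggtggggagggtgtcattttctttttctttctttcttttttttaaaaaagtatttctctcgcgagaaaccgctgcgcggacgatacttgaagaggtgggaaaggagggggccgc
Fbln5: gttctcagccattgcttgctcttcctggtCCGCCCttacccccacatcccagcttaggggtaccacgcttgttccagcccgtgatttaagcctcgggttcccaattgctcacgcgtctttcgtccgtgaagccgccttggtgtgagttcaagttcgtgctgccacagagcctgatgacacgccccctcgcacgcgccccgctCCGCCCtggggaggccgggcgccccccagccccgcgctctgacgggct
Ltbp4: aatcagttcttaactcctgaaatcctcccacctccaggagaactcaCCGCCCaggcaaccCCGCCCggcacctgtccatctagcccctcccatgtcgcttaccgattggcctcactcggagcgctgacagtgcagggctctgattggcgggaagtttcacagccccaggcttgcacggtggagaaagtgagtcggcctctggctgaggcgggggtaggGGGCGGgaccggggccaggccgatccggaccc

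These windows held 1, 2 and 3 copies of GGGCGG in Fbn1, Fbln5 and Ltbp4, and 32.7% of all 32851 promoters of this length in the table held at least 1. None of the 8 member windows held TATAAA (12.4% of all promoters), a p53 half-site (7.13%) or a full p53 site of 2 half-sites (0.0639%), searched on both strands. That says only that these letters are not in these windows. The windows were rich in G and C, at 59.2% in Fbn1, 65.2% in Fbln5 and 64.4% in Ltbp4.

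The elastic fibre genes stood at very different levels in heart endothelial cells. Ltbp4 and Fbln2 made up 85.0% to 87.4% of the summed FPKM of the 10 genes in each library, and the 3 lysyl oxidase genes stayed at 3.25 FPKM or less. By mean FPKM over the 4 libraries the order was Ltbp4 (529), Fbln2 (150), Eln (40.9), Emilin1 (22.4), Fbn1 (20.7), Fbln5 (19.3), Mfap5 (4.84), Loxl2 (2.64), Lox (1.23) and Loxl1 (0.354). Neighbours in that order kept separate ranges over the libraries for Ltbp4 and Fbln2, for Fbln2 and Eln, for Fbln5 and Mfap5, and for Loxl2 and Lox. Emilin1, Fbn1 and Fbln5 did not differ beyond their spread: Emilin1 was above Fbn1 in 2 of 4 libraries, and Fbn1 above Fbln5 in 2 of 4. Among the 11332 genes averaging 1 FPKM or more, the mean of Ltbp4 exceeded that of 98.3% and that of Fbln2 exceeded 94.6%, while Eln exceeded 80.6% and Loxl2 12.6%.

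**Figure D1:**
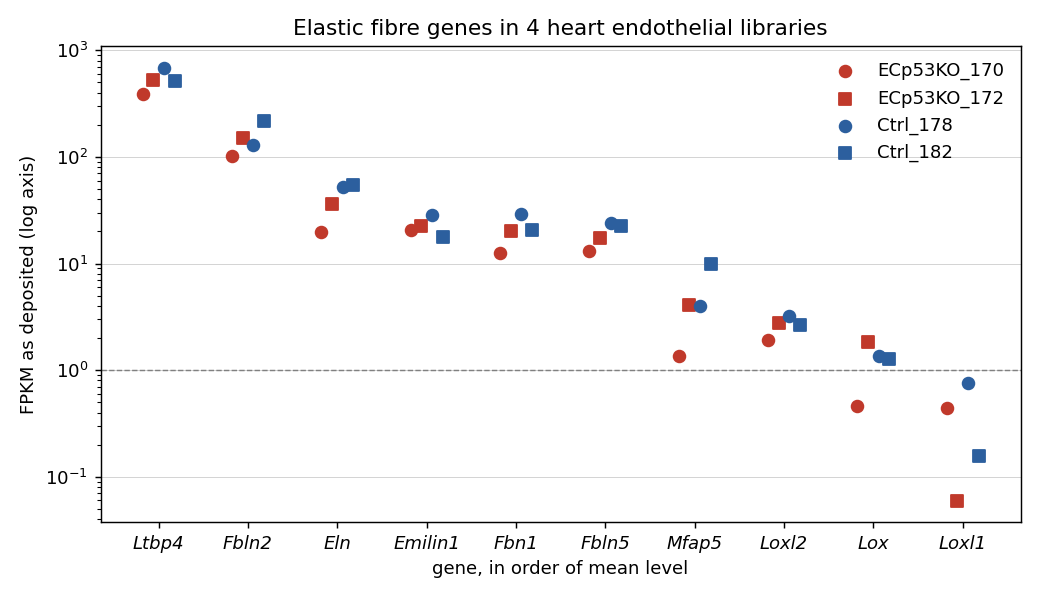
FPKM as deposited (log axis) of the 10 elastic fibre genes, in order of mean level, with 1 point per library, red for ECp53KO and blue for Ctrl, and a dashed line at 1 FPKM. The red points lie below both blue points for Eln, Fbn1 and Fbln5 and mix with them for the other 7 genes.

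Over the 10 genes, every group mean was lower in ECp53KO than in Ctrl, but no gene passed the test over all genes. Of the 9 genes that could be tested (Loxl1, below a mean of 1 FPKM, was left out), 0 were called lower and 0 higher by limma with Benjamini-Hochberg adjustment at 0.05, against 0.0882% of all genes called lower and 0.0265% called higher. At an unadjusted limma p under 0.05, 2 were lower (2.82% of all genes were) and 0 higher (1.97%). In 3 of the 10 genes (Eln, Fbn1 and Fbln5) the groups did not overlap with ECp53KO the lower, and in 0 with ECp53KO the higher, where the shares over all genes were 16.8% and 19.1%. After rescaling to TPM those shares were 22.3% and 10.9%. The log2 fold changes of the 9 tested genes, ECp53KO minus Ctrl on the log2(FPKM + 1) scale, ran from -1.09 to -0.08 with a median of -0.43, beside a median of 0.01 over all 11332 genes. That median was -0.19 when ECp53KO_170 was left out and -0.72 when ECp53KO_172 was, and it was -0.36 and -0.53 when Ctrl_178 or Ctrl_182 was. In the same order of libraries left out, 3, 8, 5 and 6 of the 9 genes were lower with no overlap (33.5%, 35.7%, 29.5% and 30.9% of all genes), and 1, 4, 0 and 0 were lower at an unadjusted limma p under 0.05 (3.02%, 7.78%, 1.85% and 2.3% of all genes).

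Elastin, the cross-linked core of the fibre, had the second largest difference. Eln (chromosome 5, 134702595 to 134747368, GRCm38) had FPKM values of 19.8 and 35.8 with ECp53KO, against control values of 52.8 and 55.1. The controls lay close together, the ECp53KO libraries differed from each other by more than the controls did, and the groups did not overlap. Eln averaged 27.8 ± 11.3 FPKM with ECp53KO and 53.9 ± 1.61 FPKM in the controls (SD, n = 2 each), a ratio of 1.94 in favour of Ctrl. The log2 fold change was -0.99 ± 0.29 (SE), with a 95% interval of -1.73 to -0.24, and the limma adjusted p was 0.864 (unadjusted p = 0.0188). About 870 to 4800 fragments lay behind each of the 4 values, by the estimated depth and the longest transcript. Without ECp53KO_170 the log2 fold change was -0.58, and without ECp53KO_172 it was -1.40. Within the low Xist level the log2 difference was -1.37, and within the high level -0.61.

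Among the microfibril genes, Fbn1 encodes fibrillin-1, the backbone of the microfibril, and is the gene mutated in Marfan syndrome. It had FPKM values of 12.6 and 20.2 with ECp53KO, against control values of 29.1 and 20.8 (chromosome 2, 125300594 to 125506485). The groups did not overlap, but ECp53KO_172 and Ctrl_182 were nearly equal, and the extremes came from ECp53KO_170 and Ctrl_178. Fbn1 averaged 16.4 ± 5.36 FPKM with ECp53KO and 24.9 ± 5.91 FPKM in the controls (SD, n = 2 each), and the log2 fold change of -0.59 ± 0.28 (SE) had a limma adjusted p of 0.864. Leaving out ECp53KO_170 gave -0.27, leaving out ECp53KO_172 gave -0.91 and leaving out Ctrl_178 gave -0.36, and it was -0.43 with each library's trend with transcript length removed. Fbn1 has the longest transcript of the 10, at 11971 nucleotides.

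Ltbp4 encodes a latent TGF-beta binding protein that also helps to deposit fibulin-5 and elastin. It was by far the most abundant member, with FPKM values of 389 and 522 in its ECp53KO libraries, against control values of 690 and 517 (chromosome 7, 27305140 to 27339720). The groups overlapped, with ECp53KO_172 and Ctrl_182 at about the same level. The log2 fold change was -0.41 ± 0.28 (SE), with a 95% interval of -1.11 to 0.30 (limma adjusted p = 0.864). Leaving out ECp53KO_170 gave -0.19 and leaving out Ctrl_178 gave -0.20, while leaving out ECp53KO_172 gave -0.62 and leaving out Ctrl_182 gave -0.61. Set beside the endothelial cadherin gene Cdh5, the Ltbp4 level was 0.396 and 0.544 times that of Cdh5 in ECp53KO and 0.628 and 0.505 times in Ctrl, in FPKM.

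Mfap5, which encodes the microfibril-associated glycoprotein MAGP2, was a low gene with the largest fold change of the 10 and a wide error. It had FPKM values of 1.35 and 4.11 with ECp53KO, against control values of 4.01 and 9.89 (chromosome 6, 122513584 to 122529290). The groups overlapped, and within each group the high Xist library was the higher one. The fitted log2 difference was -1.09 ± 0.52 (SE), with a 95% interval of -2.43 to 0.24 (limma adjusted p = 0.864). The difference was of the same size within both Xist levels, at -1.09 in each on the log2(FPKM + 1) scale. Leaving out ECp53KO_172 or Ctrl_178 gave -1.65, and leaving out ECp53KO_170 or Ctrl_182 gave -0.53. About 23.2 to 337 fragments lay behind these values.

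Fbln5 encodes fibulin-5, an adaptor that tethers lysyl oxidase-like enzymes and elastin to microfibrils and binds integrins. It had FPKM values of 13.2 and 17.3 with ECp53KO, against control values of 23.9 and 22.7 (chromosome 12, 101746565 to 101819119). The groups did not overlap, and both Xist levels showed a lower value in ECp53KO, with log2 differences of -0.81 and -0.37. Fbln5 averaged 15.3 ± 2.87 FPKM with ECp53KO and 23.3 ± 0.875 FPKM in the controls (SD, n = 2 each), a ratio of 1.52 in favour of Ctrl. The log2 fold change was -0.59 ± 0.18 (SE), with a 95% interval of -1.05 to -0.12 and a limma adjusted p of 0.864 (unadjusted p = 0.0224). It was -0.41 without ECp53KO_170.

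Fbln2, which encodes fibulin-2, a matrix protein that binds fibrillin and tropoelastin, had FPKM values of 101 and 152 with ECp53KO, against control values of 129 and 219 (chromosome 6, 91212460 to 91272540). The groups overlapped, since ECp53KO_172 was above Ctrl_178. Like Eln and Mfap5, Fbln2 was higher in the 2 libraries with high Xist than in the low Xist library of the same group, and within the Xist levels the log2 differences were -0.34 and -0.52. The log2 fold change was -0.43 ± 0.34 (SE; limma adjusted p = 0.864), and it was -0.05 without Ctrl_182, -0.14 without ECp53KO_170, -0.72 without ECp53KO_172 and -0.82 without Ctrl_178.

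Emilin1, which encodes a glycoprotein at the interface of elastin and microfibrils, differed least. Its FPKM values were 20.7 and 22.3 with ECp53KO, against control values of 28.8 and 17.9 (chromosome 5, 30913387 to 30921279). Both ECp53KO libraries lay between the controls. The log2 fold change was -0.08 ± 0.25 (SE), with a 95% interval of -0.72 to 0.56 (limma adjusted p = 0.957). Eln exceeded Emilin1 in 3 of 4 libraries, and the ratio of their FPKM was 0.959 and 1.61 in ECp53KO against 1.83 and 3.08 in Ctrl.

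**Figure D2:**
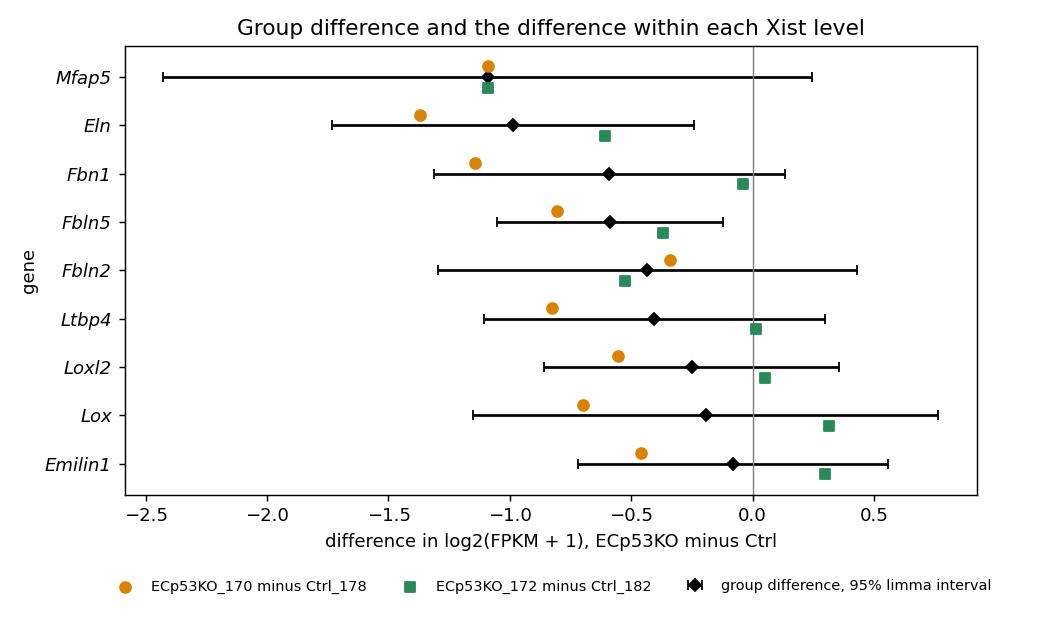
Differences in log2(FPKM + 1), ECp53KO minus Ctrl, for the 9 tested genes: the black diamond is the group difference with its 95% limma interval, the orange circle ECp53KO_170 minus Ctrl_178 and the green square ECp53KO_172 minus Ctrl_182. Only the intervals of Eln and Fbln5 leave out 0, and every orange circle lies to the left of 0 while 4 green squares lie to the right.

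The lysyl oxidases, copper enzymes that form the cross-links of elastin and collagen, were low in every library. Loxl2 (chromosome 14, 69608692 to 69695834) had FPKM values of 1.90 and 2.76 with ECp53KO, against control values of 3.25 and 2.63. Those groups overlapped, and the log2 fold change was -0.25 ± 0.24 (SE; limma adjusted p = 0.873). It was -0.06 without ECp53KO_170, -0.14 without Ctrl_178, -0.37 without Ctrl_182 and -0.44 without ECp53KO_172. Lox, the founding member of the family, on chromosome 18, stood at 0.457 and 1.82 FPKM against 1.37 and 1.26 FPKM. Its ECp53KO libraries lay on either side of both controls, and the log2 fold change of -0.19 ± 0.38 (SE; limma adjusted p = 0.934) became 0.28 without ECp53KO_170. Loxl1, which is needed for elastin renewal after birth (chromosome 9, 58287723 to 58313212), had FPKM values of 0.441 and 0.0597 with ECp53KO, against control values of 0.757 and 0.158. Those groups overlapped, and the libraries of each group differed from each other by more than the group means did. About 1.95 to 27.5 fragments lay behind the values of Loxl1.

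The libraries did not contribute alike to these differences. ECp53KO_170 held the lowest value of 8 of the 10 genes, where it was the lowest library for 30.8% of all tested genes, and Ctrl_178 held the highest value of 6. All 10 genes were lower in ECp53KO_170 than in Ctrl_178, where 46.5% of all tested genes were, and 6 of 10 were lower in ECp53KO_172 than in Ctrl_182, where 49.9% were. The median of the 9 tested genes was -0.81 in the first pair and -0.04 in the second. In the second pair Mfap5, Eln, Fbln2 and Fbln5 had log2 differences of -1.09, -0.61, -0.52 and -0.37, Fbn1, Ltbp4 and Loxl2 were nearly level (-0.04, 0.01 and 0.05), and Emilin1 and Lox were higher in the ECp53KO library (0.30 and 0.31).

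**Figure D3:**
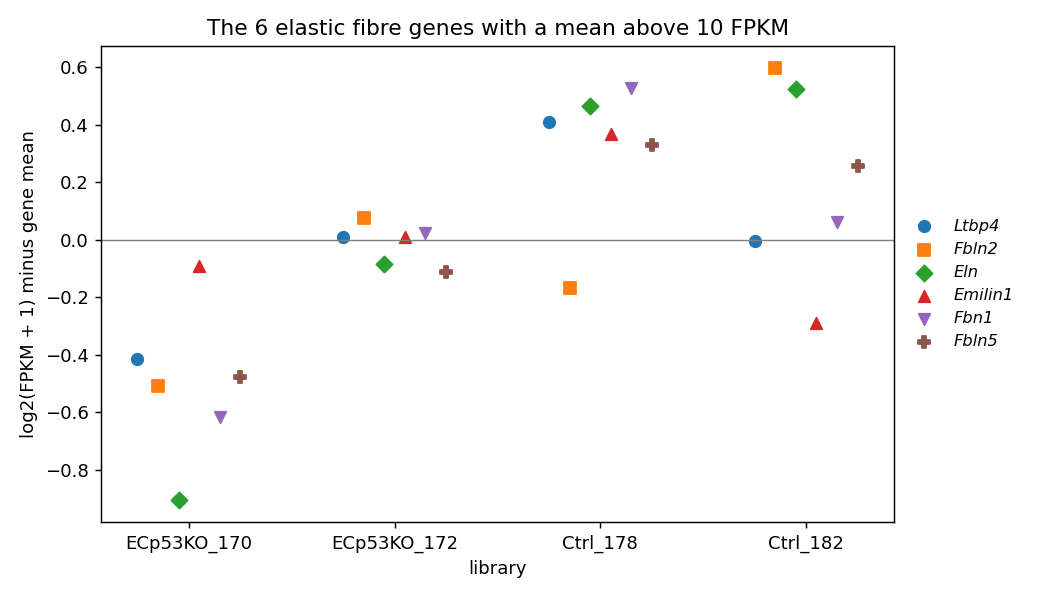
Log2(FPKM + 1) of the 6 genes with a mean above 10 FPKM, each minus its own mean over the 4 libraries, by library, with 1 symbol per gene. All 6 symbols lie below 0 in ECp53KO_170, and in Ctrl_182 they spread from Emilin1, the lowest, to Fbln2, the highest.

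Transcript length moved with this pattern. The 10 genes have a median transcript length of 4764 nucleotides, against 3010 over the tested genes, and long transcripts were relatively low in ECp53KO_170. The median shift of the 9 tested genes in ECp53KO_170 from the other 3 libraries was -0.68 as deposited and -0.47 with the length trend of each library removed. The median log2 fold change was then -0.39, with Eln at -0.97, Fbln5 at -0.52 and Fbn1 at -0.43. Mfap5, with a transcript of 1506 nucleotides, went the other way, from -1.09 as deposited to -1.19. The part of transcript length in the differences was not tested.

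Other genes of elastic fibre biology, from a list of 50, showed 0 limma calls in either direction among the 32 that could be tested, with 22 negative and 10 positive fold changes and a median of -0.19. At an unadjusted limma p under 0.05, 1 was lower and 2 were higher (2.82% and 1.97% of all tested genes were). Without overlap between the groups, 13 were lower and 3 higher (16.8% and 19.1% of all tested genes were). The 13 include Adamtsl4, which passed the filter only through the controls. ECp53KO_170 held the lowest value of 21 of the 32. The remaining 18 genes had a mean under 1 FPKM, among them Fbn2, Fbln1, Efemp1, Loxl3 and Loxl4, and 3 of them (Fbln7, Mmp12 and Elane) were listed at 0 in every library.

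All 3 tested genes of lysyl oxidase maturation had both ECp53KO values under both controls. So did 16.8% of the 11332 genes in the fit, a share that stands beside each count by role below. No role was tested as a set. Fn1, which encodes the fibronectin on which microfibrils assemble, had FPKM values of 31.9 and 66.5 with ECp53KO, against control values of 91.1 and 72.7. Its log2 fold change was -0.81 ± 0.37 (SE; limma adjusted p = 0.864). Most of the Fn1 difference lay within the low Xist level (-1.49), with -0.13 within the high level. Bmp1, the protease that activates pro-lysyl oxidase, was at 18.7 and 21.8 against 27.6 and 23.7 FPKM. Among the other microfibril genes, the latent TGF-beta binding protein gene Ltbp1 averaged 10.3 ± 0.949 against 11.6 ± 1.15 FPKM, and Adamts10, a metalloprotease gene linked to fibrillin, 23.5 ± 4.22 against 26.9 ± 2.02 FPKM. Neither Ltbp1 nor Adamts10 separated the groups. Of the 5 microfibril genes tested, 2 were lower without overlap: Ltbp3, another latent TGF-beta binding protein gene (log2 fold change -0.40 ± 0.19, SE), and Adamtsl4 (-0.56 ± 0.26), both with a limma adjusted p of 0.864. Adamtsl4 averaged 0.787 FPKM with ECp53KO and 1.63 FPKM in the controls, so it passed the filter at 1 FPKM only through the controls. Of the 4 fibulins and emilin relatives tested, 2 were lower without overlap and 1 was higher. The lower ones were Mmrn1 (log2 fold change -0.20 ± 0.21, SE) and the endothelial Mmrn2, which averaged 176 ± 0.798 against 201 ± 25.1 FPKM. Egfl7, an endothelial matrix protein that inhibits lysyl oxidases, was higher in both ECp53KO libraries, at 1132 and 962 against 847 and 867 FPKM (log2 fold change 0.28 ± 0.25, limma adjusted p = 0.871).

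The most abundant genes listed under elastin degradation were those of the cathepsins Ctsl (215 ± 32.8 against 198 ± 32.5 FPKM) and Ctsb (102 ± 10.9 against 95.5 ± 5.67 FPKM, SD, n = 2 each), whose groups overlapped. The activity of each enzyme on elastin was not measured. The other 3 of the 5 tested were less abundant and lower without overlap: the metalloprotease genes Mmp2 (log2 fold change -0.53 ± 0.25, SE) and Mmp14 (-0.51 ± 0.24) and the cathepsin gene Ctsk (-0.36 ± 0.23), each with a limma adjusted p of 0.864. Of the inhibitors, the cystatin Cst3 averaged 1316 ± 465 against 983 ± 69.1 FPKM and the metalloprotease inhibitor Timp3 averaged 362 ± 67.4 against 429 ± 110 FPKM, also with overlap. Among the receptors, the integrin gene Itgb5 had FPKM values of 23.3 and 24.8 with ECp53KO, against control values of 15.9 and 17.0, a log2 fold change of 0.52 ± 0.15 (SE; limma adjusted p = 0.864, unadjusted p = 0.0153). Glb1, which encodes lysosomal beta-galactosidase and, as a splice form, the elastin-binding protein, was the one lower gene of the list at an unadjusted limma p under 0.05, at 9.84 and 9.14 against 13.9 and 13.5 FPKM (log2 fold change -0.49 ± 0.15, limma adjusted p = 0.864). Itgb1, the common beta subunit of matrix integrins, averaged 319 ± 16.8 and 315 ± 12.5 FPKM, and its fibronectin-binding partner Itga5 averaged 39.4 ± 8.48 and 50.2 ± 8.82 FPKM. Of the 6 receptor genes tested, 3 were lower without overlap and 1, Itgb5, was higher (16.8% and 19.1% of all tested genes were). The lower ones were Glb1, Itgb3 (log2 fold change -0.56 ± 0.25, SE) and Itgav (-0.20 ± 0.22).

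TGF-beta, which is held in the matrix by latent binding proteins and induces elastin, was represented by Tgfb1 at 62.0 ± 7.85 against 81.1 ± 27.3 FPKM. Tgfb2 had FPKM values of 4.12 and 3.68 with ECp53KO, against control values of 2.16 and 2.67, without overlap (log2 fold change 0.53 ± 0.20, limma adjusted p = 0.864). The pathway inhibitor and readout Smad7 averaged 20.5 ± 9.99 against 20.2 ± 0.570 FPKM, with the ECp53KO libraries on either side of the controls.

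**Figure D4:**
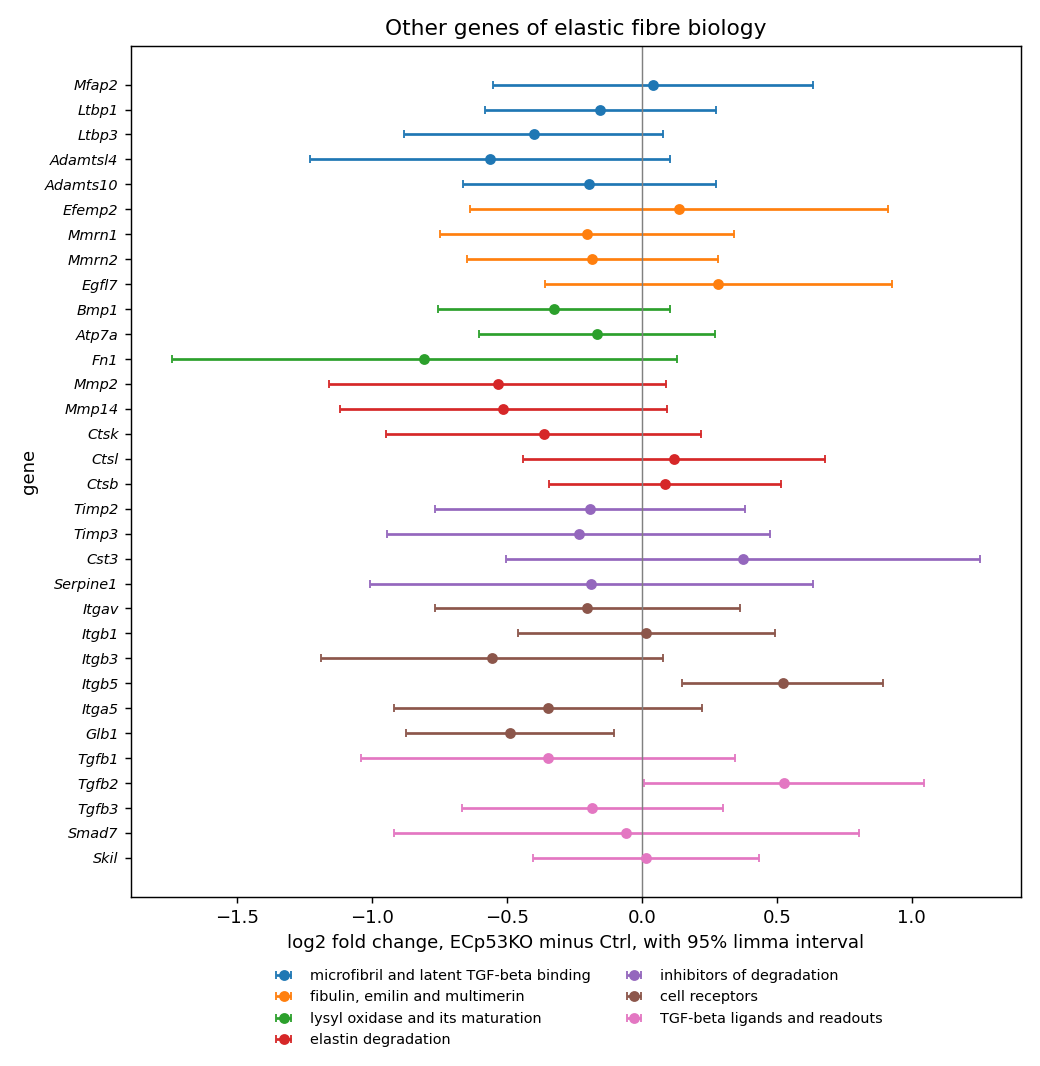
Log2 fold change, ECp53KO minus Ctrl, with its 95% limma interval for the 32 tested genes of the wider list, coloured by role. The intervals of Itgb5, Tgfb2 and Glb1 leave out 0, and those of the other 29 genes include it.

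The genes whose pattern over the 4 libraries was most like that of Eln were sought among 6256 other genes averaging 10 FPKM or more, by the root mean square difference of log2(FPKM + 1) centred on each gene's mean. Among the nearest were the imprinted noncoding RNA H19 (0.0478), Bhlhe40 (0.0843), Dusp8 (0.103) and Grasp (0.104), the values being that difference over 4 libraries. H19 had FPKM values of 5.86 and 11.4 with ECp53KO, against control values of 18.4 and 18.3. Of the elastic fibre genes, Fbln5 ranked at 109 and Fbn1 at 136 in likeness to Eln (differences of 0.262 and 0.281), and Emilin1 at 2399.

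The label of the cells was checked against markers. The 8 pan-endothelial markers summed to 4670 to 4977 FPKM, with Cdh5 at 958 to 1098 FPKM. The 12 fibroblast markers summed to 85.2 and 75.3 FPKM with ECp53KO, against control sums of 95.2 and 77.5. The most abundant of the 12 were Pcolce (23.5 and 25.1 against 44.8 and 27.9 FPKM), an enhancer of procollagen processing, and the actin-severing Gsn (17.7 to 28.1 FPKM over the libraries, highest in ECp53KO_170). Dcn stood at 16.2 to 20.0 FPKM, Pdgfra at 3.01 to 3.97 FPKM and the collagen gene Col1a1 at 0.496 to 1.21 FPKM. The 12 mural markers, of pericytes and smooth muscle, summed to 188 and 153 FPKM with ECp53KO, against control sums of 102 and 121, with 10 of 10 tested positive (median log2 fold change 0.37), 4 higher without overlap (19.1% of all tested genes were) and 0 called. They were led by Rgs5 (91.9 and 77.3 against 52.4 and 68.6 FPKM) and Myl9 (24.3 and 18.3 against 11.5 and 9.53 FPKM). The sign of the mural list was opposite to that of the elastic fibre genes, and the part of mural cells in the differences of those genes was not tested.

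The 8 endocardial markers summed to 56.1 and 65.1 FPKM with ECp53KO, against control sums of 74.8 and 89.6. The fold changes of the 6 that could be tested were negative (median -0.41), where 48.3% of all tested genes had a negative one. In 4 of these the ECp53KO values lay below both controls, as in 16.8% of the genes tested, and 0 were called. The other 2, Tmem108 and Hapln1, were under 1 FPKM throughout, and Hapln1 averaged higher with ECp53KO (0.150 against 0.0900 FPKM). The most abundant were Cytl1 (25.3 and 24.4 against 28.4 and 43.6 FPKM, without overlap) and Nfatc1 (11.4 and 22.3 against 21.6 and 19.2 FPKM, with overlap). The part of endocardial cells in the differences of the elastic fibre genes was not tested. The 9 arterial markers summed to 909 and 1214 FPKM with ECp53KO, against control sums of 1083 and 1071, lowest in ECp53KO_170, as were 8 of the elastic fibre genes. Most of each sum was Cxcl12 (573 and 789 against 673 and 569 FPKM, with overlap). The next most abundant was Sema3g (68.7 and 99.9 against 102 and 136 FPKM, without overlap). Of the 9 arterial fold changes, 5 were negative and 4 positive, and 0 were called. The 6 erythroid markers in the table summed to 411 and 89.3 FPKM with ECp53KO, against control sums of 60.3 and 33.5. Of these, 5 of 5 tested were positive (median log2 fold change 1.88) and higher without overlap (19.1% of all tested genes were), and 0 were called. Hba-a2 and Hbb-bs, counted among the 5, averaged 0.262 and 0.00990 FPKM in the controls and passed the filter only through ECp53KO values. Hbb-bs was at 66.9 FPKM in ECp53KO_170 but at 0.0221 FPKM, about 0.138 of an estimated fragment, in ECp53KO_172. The 10 cardiomyocyte markers summed to 310 and 188 FPKM with ECp53KO, against control sums of 177.8 and 168. Of the 8 tested, 7 were positive (median 0.44), 2 were higher without overlap (again beside 19.1% of all tested genes) and 0 were called. The sums of both lists were thus higher in each ECp53KO library than in each control, and highest in ECp53KO_170. Single cardiomyocyte markers were mixed in ECp53KO_172, whose sum was near that of Ctrl_178. Myh6, Tnnt2 and Tnni3 had their lowest value in ECp53KO_172, while Actc1 and Tnnc1 were above both controls there and Pln had its highest value there. Mesothelial markers summed to 17.3 to 31.1 FPKM, nearly all of it Wt1, and leukocyte markers to 4.85 to 9.72 FPKM. The part of these cells in the result was not tested, and in sorted bulk samples fewer cells of a type and less RNA per cell cannot be told apart.

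**Figure D5:**
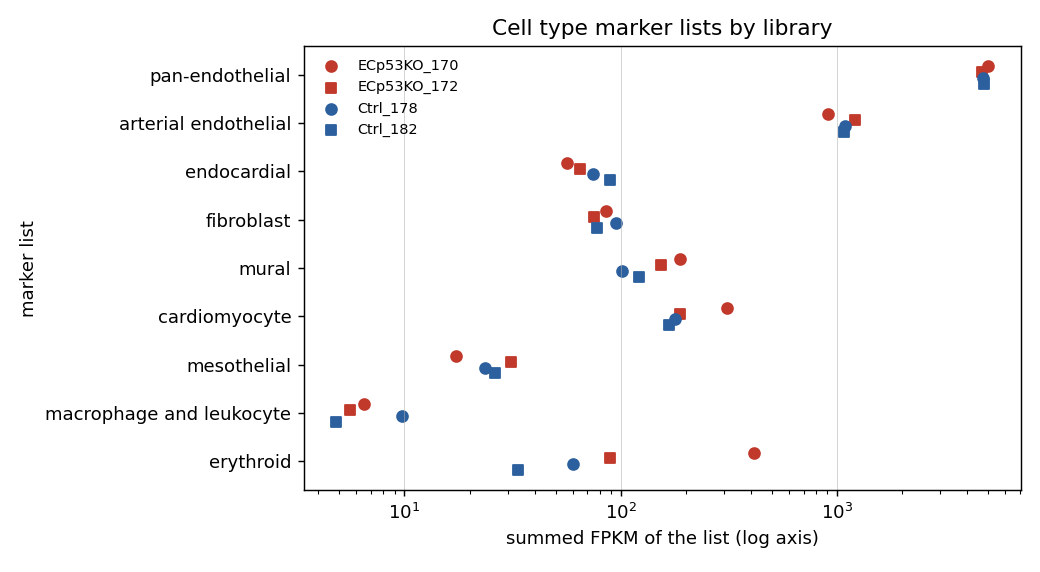
Summed FPKM (log axis) of 9 cell type marker lists, with 1 point per library, red for ECp53KO and blue for Ctrl. The mural, erythroid and cardiomyocyte sums are higher in both ECp53KO libraries than in the controls, the endocardial sums lower, and the fibroblast sums mixed.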

How the data were processed

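RNA was measured in 4 libraries (2 ECp53KO, 2 Ctrl). The authors deposited 1 table of FPKM values per gene, with 1 column per library matched by title. Per the labels' protocols, libraries were polyA-selected and unstranded, so reads of a gene and its antisense partner mix. Per the submitters' processing notes, the build was mm10 and the tools were Cufflinks 2.2.1, TopHat2 2.1.0, Trimmomatic 0.36, FastQC 0.11.5 and bcl2fastq 2.17, listed without roles. The annotation and any filters are not given in those sources.

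Values were analysed as log2(FPKM + 1) in the 11332 genes averaging 1 FPKM or more, with limma 3.58.1 in R 4.3.3 (intensity trend, two-sided, Benjamini-Hochberg over all genes, threshold 0.05, 2 residual and 3.15 prior degrees of freedom). The fit was run on simulated data to check that it returned known fold changes. That check did not assess whether differences of the size seen in the members could be called. A count test needs counts and was left out; with 2 libraries per group the smallest two-sided exact permutation p is 0.333. The log scale understates changes of low genes. Positions are from RefSeq's GRCm38.p6 table (23143 symbols matched directly, 1086 by synonym, 117 not). Transcript lengths are the longest GENCODE M21 transcript, coding where one exists. Depth was read from the commonest value of FPKM times length among 1063 low genes with 1 transcript, taken as 1 fragment, and is approximate. Length trends were removed by loess (span 0.5) per library.

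The members and lists were chosen with earlier results of these data known. Named genes are the 10 members, Trp53, the 2 most abundant genes of each role and any with an unadjusted p under 0.05 in the wider list, the 2 most abundant of each marker list (given for the fibroblast, mural, endocardial and arterial lists, with list sums for the others), and the 5 nearest to Eln in pattern. Of those 5, 1 is not reported here. Other genes named were chosen after their values were seen.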

Additional observations from a re-analysis of the deposited data

How the results depend on the processing

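Of the members that could be tested (9 in most settings, 6 with a filter at 5 FPKM and 10, with Loxl1, only with no filter) and of the tested genes of the wider list, 0 were called in either direction under the alternatives tried: a pseudocount of 0.1, no filter, a filter at 5 FPKM, TPM, quantile normalization, median centring, no trend, robust shrinkage, small RNA loci left out, the length trend removed, Xist as a covariate, a threshold of 0.1, and each library left out, with and without the length trend. Of 168 values of single members under these alternatives, 164 kept their sign and 4 did not. Leaving out 1 library, Lox ran from -0.67 to 0.28 and was positive without ECp53KO_170 (0.27 with the length trend removed as well), and Emilin1 ran from -0.41 to 0.25 and was positive without Ctrl_178 (0.26). Rescaling to TPM shifted the median of all genes by -0.11, and Eln was then -1.11. The lowest limma adjusted p of Eln under any alternative was 0.176. The count of members at an unadjusted limma p under 0.05 was 2 in the main fit, where 319 of 11332 tested genes were lower and 223 higher at that level. With small RNA loci left out it was 4, where 402 of 11102 genes were lower and 282 higher. With Xist as a covariate it was 3, where 309 of 11332 genes were lower and 215 higher. The median over the members ran from -0.55 to -0.39 with all 4 libraries and from -0.72 to -0.18 on leaving one out. No paired analysis was possible because no replicate number occurs in both groups; the Xist level was used instead, in the covariate fit and within each level. The deleted gene Trp53 was itself not called (log2 fold change -3.20, limma adjusted p = 0.146).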
